A study of Mus musculus with 8 samples.

Results

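Igf2r, Airn, Slc22a2, Slc22a3, Grb10 and Gnas are genes of 3 imprinted loci of the mouse, and their RNA levels were read from a table of 31010 genes measured in 8 germline stem (GS) cell lines. The 6 genes were chosen by symbol, and each had 1 row in the table. GS cells are cultured spermatogonia that keep stem cell activity in medium with GDNF and FGF2. The founding cells were taken from testes of adult mice and sorted on beads for the surface protein CD9, which enriches stem cells among spermatogonia, according to the study's methods. All the lines were labelled wild type, and the strain name B6 stands in each of the 8 titles. The 4 ICSI-F1 lines (lines 11, 17, 20 and 21) came from first-generation mice conceived by ICSI, the injection of a single sperm into the cytoplasm of an oocyte. The 4 control-F1 lines (lines 29, 37, 44 and 45) came from mice born after natural mating. According to the study, the sperm for the ICSI-F1 mice came from green mice, which carry an Egfp transgene, and it also calls this sperm wild type. The labels do not say which lines, if any, carry the transgene. The labels do not name the mouse behind each line. The line numbers also appear as numbers of F1 animals in the study's supplement, and the errors below describe the spread between lines. The ages of the mice are not given there.

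The titles of the samples were written in 2 styles, called label forms here. Titles with hyphens (form 1) belong to control-F1 lines 29 and 37 and to ICSI-F1 lines 11 and 17. Titles without hyphens (form 2) belong to control-F1 lines 44 and 45 and to ICSI-F1 lines 20 and 21. The labels do not say what the forms stand for. The submitters' processing notes name other versions of the same programs for each form, and the library totals, which were 24707388 to 44275442 reads as recovered from the table, were larger in form 2. Each form held 2 lines of each group. The values were FPKM, that is, fragments per kilobase of exon scaled to the size of the library. For a transcript of 1 kb, a single read added 0.0227 to 0.0401 FPKM.

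Imprinted genes are expressed mainly from the allele of 1 parent, and the parental alleles differ in DNA methylation at a differentially methylated region (DMR). In the male germline the parental marks are erased and a paternal pattern is laid down on both alleles. Igf2r encodes the cation-independent mannose 6-phosphate receptor, which carries lysosomal enzymes to the lysosome and removes IGF2 from the cell surface for degradation, and in most mouse tissues it is expressed from the maternal allele. Airn is a long noncoding RNA read from the paternal allele in the antisense direction, and it is known for silencing Igf2r in cis and, in the placenta, also the organic cation transporter genes Slc22a2 and Slc22a3. Grb10 encodes an adaptor that restrains signalling from the insulin and IGF1 receptors. Gnas encodes the stimulatory G protein alpha subunit (Gs alpha), and alternative first exons and an antisense transcript, Nespas, make its locus a set of transcripts with different parental origin. The FPKM values add up both alleles, so nothing below speaks of the allele of origin.

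The Igf2r cluster lies on chromosome 17 (GRCm38, the assembly also called mm10). Igf2r occupies chr17:12682406-12769664 on the minus strand and Airn chr17:12741311-12860136 on the plus strand. Airn starts inside intron 2 of Igf2r, 28353 bases from the Igf2r start, and both genes share 28354 bases of the genome but 0 bases of annotated exons. Slc22a2 is at chr17:12584132-12628488 (plus strand) and Slc22a3 at chr17:12418960-12507704 (minus strand), where 420 exonic bases overlap Plg on the other strand. Grb10 is at chr11:11930508-12038683 (minus strand). Gnas is at chr2:174284320-174346744 (plus strand), and 988 of its exonic bases overlap Nespas and 1469 overlap Gm20721, both on the other strand. The library kit named in the labels is not the one in the methods, and the strand setting of the counting is not given in the sources used here, so reads of overlapping and antisense transcripts may not have been kept apart.

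The start regions of these genes are shown because imprinted control acts on CpG dinucleotides, and they differ in CpG content. The windows come from RefSeq on GRCm38.p6 and span 300 bases around an annotated start, most of them upstream, 5′ to 3′, with each CpG in capitals. All 6 genes matched a window. The median over 32851 windows of 300 bases was 7 CpG.
Igf2r, chr17:12769657-12769956, minus strand: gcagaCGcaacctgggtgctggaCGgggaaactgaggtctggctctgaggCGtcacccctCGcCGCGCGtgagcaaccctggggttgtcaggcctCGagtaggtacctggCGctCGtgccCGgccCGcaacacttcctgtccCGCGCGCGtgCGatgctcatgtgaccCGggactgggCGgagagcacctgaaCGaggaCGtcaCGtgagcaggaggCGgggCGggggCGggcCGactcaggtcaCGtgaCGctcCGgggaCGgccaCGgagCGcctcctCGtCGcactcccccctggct
Airn, chr17:12741061-12741360, plus strand: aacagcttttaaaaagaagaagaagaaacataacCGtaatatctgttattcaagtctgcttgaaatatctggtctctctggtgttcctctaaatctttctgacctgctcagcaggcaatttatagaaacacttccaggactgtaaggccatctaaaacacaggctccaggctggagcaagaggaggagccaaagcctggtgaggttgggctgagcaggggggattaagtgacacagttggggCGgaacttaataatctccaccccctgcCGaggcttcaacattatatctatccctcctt
Slc22a3, chr17:12507655-12507954, minus strand: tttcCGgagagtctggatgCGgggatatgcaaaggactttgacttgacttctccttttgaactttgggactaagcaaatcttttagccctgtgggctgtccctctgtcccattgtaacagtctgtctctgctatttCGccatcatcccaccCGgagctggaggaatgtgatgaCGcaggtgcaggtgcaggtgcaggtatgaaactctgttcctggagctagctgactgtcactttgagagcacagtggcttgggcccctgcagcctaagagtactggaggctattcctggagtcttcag
Grb10, chr11:12037371-12037670, minus strand: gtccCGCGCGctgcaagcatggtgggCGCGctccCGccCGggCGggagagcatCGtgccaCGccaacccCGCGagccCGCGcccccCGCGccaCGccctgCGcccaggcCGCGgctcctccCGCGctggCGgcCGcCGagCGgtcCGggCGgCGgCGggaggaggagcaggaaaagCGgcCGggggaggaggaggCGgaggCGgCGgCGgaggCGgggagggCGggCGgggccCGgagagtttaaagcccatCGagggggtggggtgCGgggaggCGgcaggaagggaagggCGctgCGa
Gnas, chr2:174329756-174330055, plus strand: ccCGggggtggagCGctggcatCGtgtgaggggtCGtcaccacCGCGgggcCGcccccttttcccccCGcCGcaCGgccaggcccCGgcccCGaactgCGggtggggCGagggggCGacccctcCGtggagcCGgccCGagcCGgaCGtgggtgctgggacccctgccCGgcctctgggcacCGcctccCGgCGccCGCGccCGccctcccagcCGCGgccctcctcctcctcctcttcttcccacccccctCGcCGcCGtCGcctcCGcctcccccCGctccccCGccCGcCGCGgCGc
The Igf2r window held 34 CpG, and 7.73% of all windows held as many or more. The Airn window held 3 CpG (76.7% of windows held as many), that of Slc22a3 held 5 (62.0%) and that of Slc22a2 held 8 (48.7%). Grb10 has 1 start with 9 CpG (45.8%) and the printed one with 45 CpG (1.93%). Gnas has 4 windows in RefSeq with 16, 27, 28 and 40 CpG, and the printed one, with 40 CpG, is matched by 3.91% of windows. CpG was counted as the letters CG, which read the same on either strand. The Airn window ends shortly after the annotated start at 12741311, so CpG further into the gene were not counted. The Igf2r DMR that the study assayed was not placed on the genome here, so whether any window covers it was not determined. These counts describe the reference sequence, and methylation was not analysed here.

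The 6 genes covered a wide range of levels, and the order of the levels was nearly the same in every line. Over the 8 lines Igf2r had a mean of 33.4 FPKM, Gnas 13.4, Grb10 3.15, Airn 0.331, Slc22a2 0.304 and Slc22a3 0.0342 FPKM. Igf2r was above 93.2% of the genes that had any read, Gnas above 81.7%, Grb10 above 61.1%, Airn above 40.0%, Slc22a2 above 39.3% and Slc22a3 above 20.3%. The ranges of neighbouring genes in this order did not overlap, and the order held in 8 of 8 lines, except for Airn and Slc22a2. Airn was the higher of those in 3 of 8 lines and their ranges overlapped. Igf2r was 1.80 to 3.66 times the FPKM of Gnas within a line, and 53.1 to 252 times that of Airn. FPKM divides reads by the merged annotated exons of a gene, 9308 bases for Igf2r, 11387 for Gnas and 4623 for Airn. Ratios and ranks between genes depend on these lengths, and levels per transcript were not measured. The 3 genes over the minimum of a mean of 1 FPKM (Igf2r, Gnas and Grb10) entered the test across genes, and the other 3 did not.

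**Figure D1:**
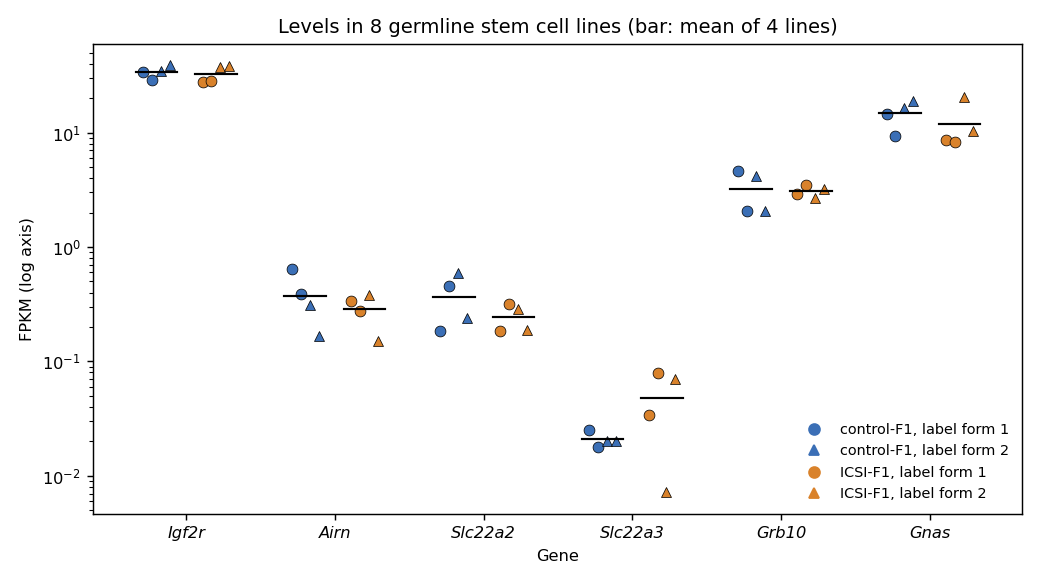
FPKM (vertical log axis) of the 6 genes in each of the 8 GS cell lines. Each point is 1 line, blue for control-F1 and orange for ICSI-F1, circles for label form 1 and triangles for label form 2, and the bar is the mean of 4 lines. Igf2r stays between 27.8 and 38.7 FPKM, while Slc22a3 lies between 0.00715 and 0.0786 FPKM, where a value stands for 1 to 11 reads.

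Whether conception by ICSI was followed by other levels of these genes in germline cells was asked by comparing the groups gene by gene. No difference between ICSI-F1 and control-F1 lines exceeded the spread between lines for any of the 6 genes, and the values of the groups overlapped for all 6. Over 12000 genes, limma (a linear model with the variance shared across genes, on log2(FPKM + 1)) called 0 after Benjamini-Hochberg adjustment at 0.05. Before adjustment, 55 genes (0.458%) lay under 0.05, fewer than chance alone would give. This fit and the permutation tests below left the label forms out, so differences between forms counted as spread between lines. With the label form as covariate, limma called 0 genes, and 140 of the 12000 were under 0.05 before adjustment, also fewer than chance alone would give. The intervals of all 6 genes included 0 in that fit, run without the filter on low values for the low genes. limma-voom on the recovered reads also called 0, with 50 genes under 0.05 before adjustment. Of all tested genes, 0.442% had groups that did not overlap.

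Igf2r was at 33.8, 28.7, 34.7 and 38.7 FPKM in control-F1 lines 29, 37, 44 and 45, and at 27.8, 28.3, 37.1 and 38.0 FPKM in ICSI-F1 lines 11, 17, 20 and 21. The lowest and the highest line of one group lay close to those of the other. The control mean was 34.0 ± 4.10 FPKM and the ICSI mean 32.8 ± 5.53 FPKM (SD, n = 4 each). The difference, ICSI minus control, was -0.057 on the log2 scale (95% confidence interval -0.37 to 0.26, limma adjusted p = 1.0). With the label form as covariate the interval was narrower, -0.26 to 0.14. The exact two-sided permutation test over the 70 assignments of the lines, whose smallest p is 0.0286, gave p = 0.771. These levels rest on 6666 to 15895 reads per line. The sign of the difference turned when control line 45, ICSI line 11 or ICSI line 17 was left out, with values from -0.13 to 0.015 over the lines left out in turn.

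The level of Igf2r separated the label forms instead. All 4 lines of form 1 were between 27.8 and 33.8 FPKM and all 4 lines of form 2 between 34.7 and 38.7 FPKM, with means of 29.6 ± 2.82 and 37.1 ± 1.75 FPKM (SD, n = 4 each). The gap between them was small, since control line 29 was at 33.8 and control line 44 at 34.7 FPKM. With the group as covariate, form 2 was higher by 0.32 on the log2 scale (95% confidence interval 0.12 to 0.52, limma adjusted p = 0.0419). In this comparison 16% of the 12000 genes were called, 10.2% higher and 5.76% lower in form 2, and 26.8% of the genes had forms that did not overlap, so a shift of this kind was common among the genes. The call was lost without the filter on low values (limma adjusted p = 0.0600), after rescaling to TPM (0.27, limma adjusted p = 0.111) and after quantile normalization (0.21, limma adjusted p = 0.167). It was also lost when any line other than control line 29 was left out (limma adjusted p 0.0556 to 0.136), and the difference stayed positive under all of these, between 0.21 and 0.37. The count behind these shares, 1917 genes, was 210 to 1209 without any single line other than ICSI line 21, and 2691 without that line. Depth and the spermatogonial markers also separated the forms: the mean log2(FPKM + 1) of 26 spermatogonial markers was 4.87 to 4.98 in form 1 and 5.15 to 5.51 in form 2. Their part in the Igf2r difference was not tested, and in bulk RNA fewer cells of a type and less RNA per cell cannot be told apart. Within form 1 the ICSI minus control difference of Igf2r was -0.15 and within form 2 it was 0.035 on the log2 scale, and the interaction of group and form was 0.18 (95% confidence interval -0.23 to 0.60, limma adjusted p = 1.0). No gene of 12000 passed for the interaction, and 147 (1.23%) were under 0.05 before adjustment.

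**Figure D2:**
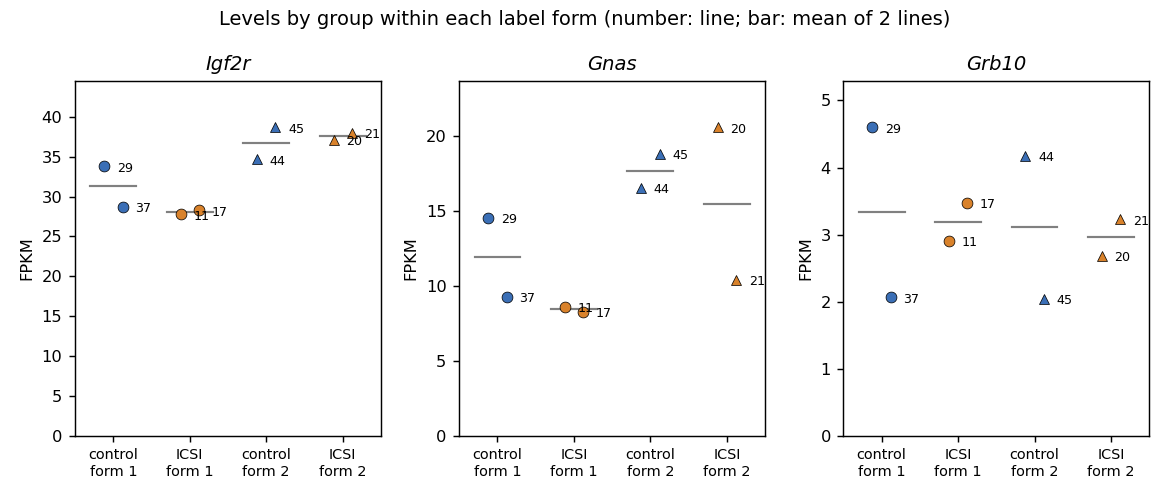
FPKM of Igf2r, Gnas and Grb10 (vertical linear axes from 0) by group within each label form. Each point is 1 line with its number beside it, and the grey bar is the mean of 2 lines. For Igf2r the 4 lines of form 2 lie above the 4 lines of form 1, Gnas is highest in ICSI line 20 at 20.6 FPKM, and Grb10 is highest in control lines 29 and 44.

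The study also measured Igf2r by real-time PCR, and its primers show which part of the transcript was read. In lower case, 5′ to 3′, they are as follows.
Forward primer: tagttgcagctctttgcacg
Reverse primer: acagctcaaacctgaagcg
Both primers matched the Igf2r transcript Igf2r-201 in the last of its 48 exons, the forward one at chr17:12683010-12683029 and the reverse one at chr17:12682890-12682908, and they frame a product of 140 bases. The product lies 680 bases downstream of the stop codon, in the noncoding end of the mRNA, far from the part of the gene that Airn overlaps. The study reported comparable PCR levels of imprinted genes in both types of line, and no gene that differed in its own RNA-seq comparison. It also assayed methylation at imprinted DMRs in the lines, that of Igf2r among them, and reported an androgenetic pattern without significant differences. No PCR or methylation values were analysed here.

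Airn, the antisense noncoding RNA of the cluster, was low over its annotated exons. Its FPKM is scaled to 4623 exonic bases of a gene that spans chr17:12741311-12860136. RNA from the rest of that span was not measured here, so the values do not give the level of Airn as a whole. Control-F1 lines 29, 37, 44 and 45 had 0.637, 0.390, 0.310 and 0.167 FPKM, and ICSI-F1 lines 11, 17, 20 and 21 had 0.337, 0.276, 0.377 and 0.151 FPKM. Control line 29 stood highest, and control line 45 and ICSI line 21 were the lowest of their groups. These are 24 to 78 reads per line. Pooled over the lines, 204 control reads gave 0.344 FPKM (95% exact Poisson interval 0.298 to 0.394) and 155 ICSI reads gave 0.280 FPKM (0.237 to 0.327), and these intervals cover counting error only. The difference of ICSI from control lines was -0.091 in log2(FPKM + 1) (exact two-sided permutation p = 0.457, n = 4 each). Without a filter on low values, limma gave an interval of -0.33 to 0.15. The understated scale of a low gene was set aside by using log2 of recovered reads scaled to depth, on which the difference was -0.32 (exact permutation p = 0.486, n = 4 each). Leaving out control line 29 brought the difference in log2(FPKM + 1) to -0.0038, the value nearest to 0 when single lines were dropped, and the one farthest from 0, -0.17, came with control line 45 dropped.

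No relation of the exonic Airn level with Igf2r passed a test. Over the 8 lines Pearson's r was -0.31 (permutation p = 0.468) and Spearman's rho -0.45 (permutation p = 0.267). After the mean of each label form was removed, r turned to 0.47 (permutation p = 0.313), and without control line 29 and ICSI line 21 the pooled r was -0.43 (permutation p = 0.413). A total of 10 relations were computed in this family, and the adjusted p of this one was 0.792 for r and 0.779 for rho. Airn was 0.410 ± 0.158 FPKM in form 1 and 0.251 ± 0.111 FPKM in form 2 (SD, n = 4 each), the opposite order to Igf2r, with forms that overlapped (limma without the filter, difference -0.17, 95% confidence interval -0.38 to 0.042).

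Slc22a2, which encodes an organic cation transporter best known from the kidney, was at 0.183, 0.452, 0.590 and 0.237 FPKM in control-F1 lines 29, 37, 44 and 45, and at 0.184, 0.314, 0.286 and 0.187 FPKM in ICSI-F1 lines 11, 17, 20 and 21. Control lines 37 and 44 were above every ICSI line, control line 45 lay within the ICSI range, and control line 29 was just under its lower end. The difference was -0.13 in log2(FPKM + 1) (exact two-sided permutation p = 0.343, n = 4 each). The pooled counts were 114 reads in control and 72 in ICSI lines, for 0.358 FPKM (95% exact Poisson interval 0.295 to 0.430) and 0.242 FPKM (0.189 to 0.304). Dropping control line 29 gave -0.19 and dropping control line 44 gave -0.050, and the values with any other single line dropped lay between these.

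Slc22a3, which encodes a transporter of organic cations and monoamines, had 3, 2, 3 and 4 reads in control-F1 lines 29, 37, 44 and 45, and 4, 10, 1 and 11 reads in ICSI-F1 lines 11, 17, 20 and 21. In FPKM these are 0.0251, 0.0178, 0.0203 and 0.0201 in the control lines and 0.0337, 0.0786, 0.00715 and 0.0707 in the ICSI lines. ICSI lines 17 and 21 were above the control lines, line 11 slightly so, and line 20 below them. The difference was 0.037 in log2(FPKM + 1) (exact two-sided permutation p = 0.229, n = 4 each), and 0.71 in log2 of recovered reads scaled to depth (exact permutation p = 0.314, n = 4 each). Without ICSI line 20 the groups no longer overlapped, and the exact permutation p, 0.0286 (n = 4 and 3), was the smallest that design can give. With any other single line dropped it was 0.229 to 0.4. Dropping ICSI line 20 also put 382 of the 12000 tested genes under 0.05 in limma before adjustment, against 55 with all lines. Pooled, 12 control reads gave 0.0207 FPKM (95% exact Poisson interval 0.0107 to 0.0362) and 26 ICSI reads 0.0480 FPKM (0.0314 to 0.0704), and reads of Plg, whose exons overlap those of Slc22a3, numbered 26 to 66 per line. The relation of Slc22a3 with Airn was r = -0.42 (permutation p = 0.292, adjusted 0.792) and rho = -0.45 (permutation p = 0.267, adjusted 0.779) over 8 lines, and r was -0.66 with the label forms removed (permutation p = 0.127, adjusted 0.422). Without control line 29 and ICSI line 21 it was -0.24 (permutation p = 0.593).

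The other listed genes within 1 Mb of Igf2r differed widely in level. Mas1, which overlaps the far end of Airn, had 0 to 8 reads per line. Mrgprh was listed at 0 in every line, and Plg was at 0.414 FPKM on average. On the other side of Airn, Tcp1, a chaperonin subunit, was at 148 FPKM on average, Pnldc1, an exonuclease that trims piRNAs, at 48.1, Mrpl18, a mitochondrial ribosomal protein, at 29.7, and Acat2, a thiolase of the cytosol, at 24.0 FPKM. Of 15 listed genes of the Igf2r neighbourhood, Igf2r among them, 14 were found and 7 tested. None was called between ICSI-F1 and control-F1 lines, 3 were higher and 4 lower, and their median difference was -0.0055 against -0.013 over all tested genes. Tcp1 and Igf2r were called higher in label form 2, Tcp1 by 0.35 (limma adjusted p = 0.0370), and 0 of the 7 were called lower. Of all tested genes, 10.2% were called higher and 5.76% lower. The median over the 7 genes was 0.15 against 0.028 over all tested genes.

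The partners of Igf2r in the lysosome pathway were expressed throughout. M6pr, the smaller cation-dependent mannose 6-phosphate receptor, averaged 62.6 ± 3.41 FPKM in the control lines and 62.0 ± 7.0 in the ICSI lines (SD, n = 4 each), above Igf2r. All 18 listed genes of mannose 6-phosphate sorting were tested, and 0 were called between the groups. In label form 2, 4 of them were called higher and 1 lower, against 10.2% higher and 5.76% lower of all tested genes. The lower one was Gga3, an adaptor that sorts the receptors at the Golgi (-0.61, limma adjusted p = 0.0322), named after its value was seen. Igf2r is itself 1 of the 4, with the retromer subunit Vps35 and the sorting nexin Snx2, and Vps26a, a retromer subunit that returns the receptors from endosomes, had the smallest p of the list, at 51.5 ± 4.18 FPKM in form 1 and 86.2 ± 5.63 FPKM in form 2 (difference 0.73, limma adjusted p = 0.00792). Nagpa, the enzyme that uncovers the mannose 6-phosphate tag, had the smallest p between the groups, at 14.7 ± 0.351 and 16.5 ± 1.62 FPKM in control and ICSI lines (difference 0.15, limma adjusted p = 1.0).

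The cargo of the receptor, 32 lysosomal enzymes, was likewise tested in full with 0 calls between the groups. The median difference was -0.012 against -0.013 over all tested genes, with 15 higher and 17 lower. Ctsd (cathepsin D) at 360.0 FPKM, Psap (prosaposin) at 202.5, Hexa (hexosaminidase A) at 64.1 and Ctsl (cathepsin L) at 61.6 FPKM had the highest means. In label form 2, 6 of the 32 were called higher and 0 lower, against 10.2% and 5.76% of all tested genes, with a median of 0.22 against 0.028 over all tested genes. Hexa, called among them, averaged 53.8 ± 4.72 FPKM in form 1 and 74.4 ± 5.55 FPKM in form 2 (SD, n = 4 each, difference 0.46, limma adjusted p = 0.0204).

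Grb10, the adaptor of insulin and IGF signalling, was at 4.60, 2.06, 4.17 and 2.05 FPKM in control-F1 lines 29, 37, 44 and 45, and at 2.91, 3.47, 2.69 and 3.23 FPKM in ICSI-F1 lines 11, 17, 20 and 21. The control lines formed a high pair (29 and 44) and a low pair (37 and 45), 1 of each in either label form, and all the ICSI lines lay between them. The means were 3.22 ± 1.36 and 3.07 ± 0.347 FPKM (SD, n = 4 each). The difference was 0.0027 on the log2 scale (95% confidence interval -0.49 to 0.50, limma adjusted p = 1.0, exact permutation p = 1.0). With the label form as covariate the interval was -0.50 to 0.51. The difference turned negative after quantile normalization and on leaving out control line 37, control line 45, ICSI line 17 or ICSI line 21, with a range of -0.13 to 0.16. Between the label forms Grb10 differed by -0.072 (95% confidence interval -0.58 to 0.43, limma adjusted p = 0.839). Its SD over the 8 lines, 0.32 on the log2 scale, was larger than that of 77.8% of tested genes, against 42.5% for Igf2r and 92.6% for Gnas.

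The high Grb10 lines were those with the most RNA of fibroblast markers. GS cells are commonly grown on feeder fibroblasts. According to the study's methods, GS cells were left on gelatin plates before collection to deplete embryonic fibroblasts. The mean log2(FPKM + 1) of 26 fibroblast markers, collagens and other matrix genes among them, was 5.10, 3.60, 4.87 and 3.27 in control-F1 lines 29, 37, 44 and 45, and 3.65, 4.11, 4.48 and 3.71 in ICSI-F1 lines 11, 17, 20 and 21. All 26 markers were above 0.1 FPKM on average, and Fn1, a matrix fibronectin, ranged from 61.8 to 148 FPKM and Sparc from 31.4 to 206 FPKM. Pearson's r of Grb10 with this score was 0.83 over 8 lines (permutation p = 0.0130, adjusted over 10 relations 0.13) and Spearman's rho 0.86 (permutation p = 0.0107, adjusted 0.107). With the mean of each label form removed r was 0.84 (permutation p = 0.0313, adjusted 0.243). Without control lines 29 and 44, which lay farthest from the median score, r was 0.51 (permutation p = 0.299), so the relation rests on those lines. Airn had r = 0.69 with the score (permutation p = 0.0552, adjusted 0.276) and rho = 0.38 (permutation p = 0.360, adjusted 0.779), which became r = 0.81 with the forms removed (permutation p = 0.0486, adjusted 0.243) and r = 0.48 without control lines 29 and 44 (permutation p = 0.324). For Igf2r the pooled r with the score was 0.10, for Gnas 0.35, for Slc22a2 0.24 and for Slc22a3 -0.20, with permutation p-values from 0.374 to 0.795. None of the 10 relations passed the adjustment. The part of fibroblast RNA in the Grb10 and Airn levels was not tested.

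**Figure D3:**
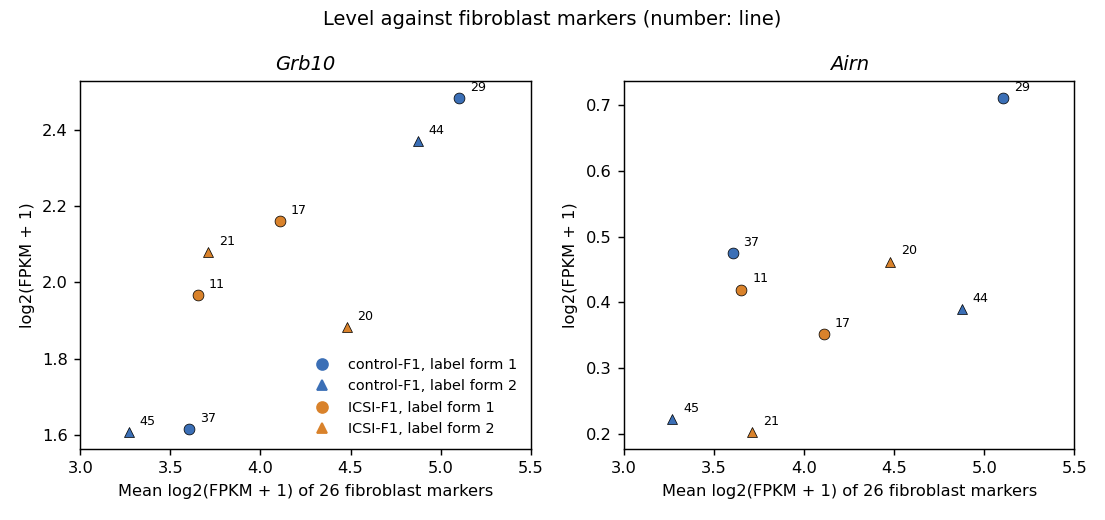
log2(FPKM + 1) of Grb10 and Airn (vertical axes) against the mean log2(FPKM + 1) of 26 fibroblast markers (horizontal axis) in the 8 GS cell lines. Each point is 1 line with its number, blue for control-F1 and orange for ICSI-F1, circles for label form 1 and triangles for form 2. Control lines 29 and 44 have the highest scores, 5.10 and 4.87, and the highest Grb10, while Airn is highest in control line 29 alone.

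No relative or partner of Grb10 was called between the groups. Grb7, an adaptor of the same family, was at 13.8 ± 3.36 and 14.3 ± 1.07 FPKM in control and ICSI lines (SD, n = 4 each), above Grb10, and Grb14 was at 0.439 FPKM on average, under the minimum for the test. Of 27 listed genes of IGF and insulin signalling 21 were tested, with 0 calls between the groups, 6 higher and 15 lower in ICSI lines, and a median of -0.018 against -0.013 over all tested genes. The most abundant were Nedd4, a ubiquitin ligase that binds Grb10, at 44.5 FPKM, and Igfbp2, an IGF binding protein, at 43.6 FPKM. Igfbp6, with the smallest p of the list, was at 30.3 ± 8.68 and 23.3 ± 5.69 FPKM (difference -0.35, limma adjusted p = 1.0). In label form 2, 2 of the 21, Irs2 and Grb2, were called higher and 0 lower, a share near the 10.2% higher of all tested genes. Irs2, a docking protein of the insulin and IGF1 receptors, was at 6.23 ± 1.51 FPKM in form 1 and 15.0 ± 2.00 FPKM in form 2 (difference 1.16, limma adjusted p = 0.00913). Around Grb10 on chromosome 11, 3 of 7 genes were tested and 0 called in either comparison, and Fignl1, an ATPase of DNA repair, was the most abundant at 21.5 FPKM.

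Gnas was at 14.5, 9.26, 16.5 and 18.8 FPKM in control-F1 lines 29, 37, 44 and 45, and at 8.60, 8.27, 20.6 and 10.4 FPKM in ICSI-F1 lines 11, 17, 20 and 21. ICSI line 20 was the highest of all 8 lines and the other ICSI lines were among the 4 lowest, with control line 37. The control mean was 14.8 ± 4.07 FPKM and the ICSI mean 11.96 ± 5.81 FPKM (SD, n = 4 each). The difference was -0.34 on the log2 scale (95% confidence interval -0.99 to 0.32, limma adjusted p = 1.0, exact permutation p = 0.400). With the label form as covariate the interval was narrower, -0.80 to 0.13 (limma unadjusted p = 0.138). The difference was negative under every alternative tried, from -0.61 without ICSI line 20 to -0.20 without ICSI line 17, and never called. Within form 1 it was -0.42 and within form 2 -0.25, with an interaction of 0.17 (95% confidence interval -0.84 to 1.19, limma adjusted p = 1.0).

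Between the label forms Gnas differed by more than Igf2r, but with a wider spread. The means were 10.2 ± 2.95 FPKM in form 1 and 16.6 ± 4.44 FPKM in form 2 (SD, n = 4 each), and the forms overlapped, since ICSI line 21 of form 2 was at 10.4 FPKM and control line 29 of form 1 at 14.5 FPKM. The difference was 0.65 (95% confidence interval 0.18 to 1.11, limma adjusted p = 0.0632) and passed only when ICSI line 21 was left out (0.81, limma adjusted p = 0.0220). Nespas, the antisense transcript at Gnas, was at 1.14, 1.08, 0.379 and 0.944 FPKM in the control lines and at 0.726, 0.801, 0.596 and 0.406 FPKM in the ICSI lines, in the same order of lines. Gnas exceeded Nespas 8.55 to 43.7 times within a line. The ratio depends on the exonic lengths used and on how reads of their shared 988 exonic bases were assigned. The ICSI minus control difference of Nespas was -0.19 in log2(FPKM + 1) (exact two-sided permutation p = 0.314, n = 4 each).

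**Figure D4:**
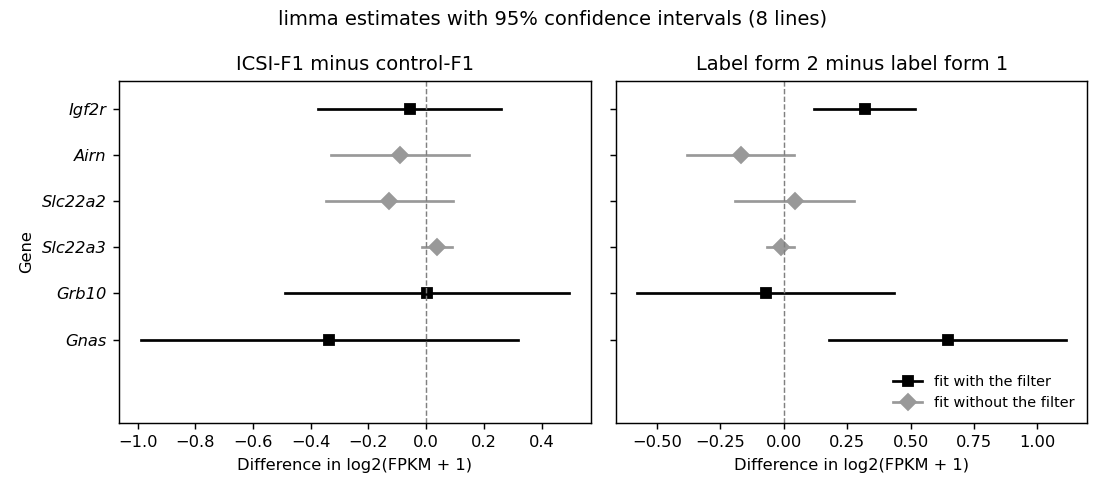
Differences in log2(FPKM + 1) of the 6 genes (horizontal axes), ICSI-F1 minus control-F1 on the left and label form 2 minus form 1, with the group as covariate, on the right. Points are limma estimates from 8 lines and lines are 95% confidence intervals, black for the 3 genes over the minimum of a mean of 1 FPKM and grey for the 3 genes under it, from the fit without that filter. Every interval on the left includes 0, and on the right those of Igf2r (0.12 to 0.52) and Gnas (0.18 to 1.11) do not.

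The pathway that Gs alpha feeds showed no call between the groups either. Of 41 listed genes of Gs and cAMP signalling 33 were tested, with 15 higher and 18 lower in ICSI lines and 1 under 0.05 before adjustment. That gene was Prkar1b, a regulatory subunit of protein kinase A, at 2.01 ± 0.209 and 2.72 ± 0.416 FPKM (difference 0.30, limma adjusted p = 1.0). The beta subunit gene Gnb1 was the most abundant at 181.9 FPKM. In label form 2, 5 of the 33 were called higher and 2 lower, against 10.2% and 5.76% of all tested genes. Among the higher ones were Gnb1 (0.40, limma adjusted p = 0.0336) and Prkar1a (0.41, limma adjusted p = 0.0487), a regulatory subunit of protein kinase A. The lower ones, named after their values were seen, were Crtc1 (-0.55, limma adjusted p = 0.0394) and Crtc2 (-0.48, limma adjusted p = 0.0272), coactivators of CREB. Of 10 other G protein alpha subunits tested, 0 were called between the groups and 2, Gnai3 (0.47, limma adjusted p = 0.0313) and Gna13 (0.50, limma adjusted p = 0.0220), were called higher in form 2. Gnai2, an inhibitory alpha subunit, at 65.6 FPKM was the most abundant of these, above the Gnas row at 13.4. The Gnas value is scaled to 11387 exonic bases, with 24 annotated transcripts merged. Its rank against the other subunits depends on that length, and the level of the Gs alpha transcript alone was not measured. Around Gnas on chromosome 2, 10 of 15 listed genes were tested and 0 were called in either comparison, with a median group difference of -0.063 against -0.013 over all tested genes.

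The organic cation transporters as a family were low. Of 12 listed, 7 passed the minimum, and Slc22a5, a carnitine transporter, was the highest at 4.53 FPKM, followed by Slc22a17 at 3.60 and the efflux carrier Slc47a1 at 3.21 FPKM. None was called between the groups. Of the 7, 1 was called lower and 0 higher in label form 2, against 5.76% and 10.2% of all tested genes. It was Slc47a2, at 2.65 ± 0.258 FPKM in form 1 and 1.43 ± 0.474 FPKM in form 2 (difference -0.61, limma adjusted p = 0.0336).

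Genes whose levels followed a member most closely, once the mean of each label form was removed, were found by Pearson's r over the 8 lines among all 12000 genes. For Igf2r these were Cdkal1 (r = 0.99) and Atp6v0b (r = 0.98), for Grb10 Snap47 (r = 0.98) and AU040320 (r = 0.97), and for Gnas Rilpl2 (r = 0.99) and Etfa (r = 0.99). With the forms left in, r of Atp6v0b with Igf2r was 0.23 while that of Cdkal1 was 0.99. These are the highest of many values over 8 lines that share libraries, and they describe these lines.

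The lines carried the markers of spermatogonia. All 26 spermatogonial markers were tested and 0 were called between the groups, with Dazl at 337 FPKM, Ddx4 at 224 and Uchl1 at 390 FPKM on average. In label form 2, 12 of the 26 were called higher and 0 lower, against 10.2% and 5.76% of all tested genes. Of 17 Sertoli and Leydig cell markers 5 passed the minimum, Sox9 and Wt1 at 2.18 and 2.08 FPKM among them, and 6, including Amh, Fshr and Insl3, were under 0.1 FPKM in every line. Of 25 fibroblast markers tested, 24 were lower and 1 was higher in ICSI-F1 lines with 0 called. Of all tested genes, 44.3% were higher. The median difference of the markers was -0.23 against -0.013 over all tested genes. The mean log2(FPKM + 1) of the fibroblast markers was 5.10 and 4.87 in control lines 29 and 44. It was 3.60 and 3.27 in control lines 37 and 45, and all ICSI lines lay between these pairs, at 3.65 to 4.48.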

How the data were processed

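RNA-seq of 8 GS cell lines was read from 1 deposited table of FPKM values. According to the study's methods and the submitters' processing notes, the authors trimmed single reads of 76 bases with cutadapt, mapped them to mm10 with STAR and GENCODE M25, and counted them with HTSeq. The notes give cutadapt 3.4, STAR 2.7.9a and HTSeq 0.13.5 for label form 1, and cutadapt 1.16, STAR 2.6.0c and HTSeq 0.11.2 for form 2. Columns of the table with the log2 fold changes and p-values of the authors' own comparison (DESeq2) were not used.

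log2(FPKM + 1) was computed here from the deposited FPKM and tested with limma 3.58.1 in R 4.3.3 (eBayes with trend, two-sided, Benjamini-Hochberg) over the 12000 genes whose mean reached 1 FPKM, because a count model does not suit FPKM. Single genes were tested by exact permutation, computed in Python 3.11.15 with numpy 2.4.6, and the Poisson intervals came from scipy 1.17.1. A pseudocount of 1 understates changes of low genes. FPKM times exonic length (GENCODE M21, which held 30946 of the identifiers) came in steps of whole reads within 0.01 for 11990 tested genes (99.9%) and 99.8% of genes above 0, and limma-voom was run on those reads. Where that length gave no whole reads another was searched for, which was 4623 in place of 3597 bases for Airn and 11387 in place of 11186 for Gnas. A count of 0 in a gene of 1 kb allowed up to 0.0680 to 0.120 FPKM (3 reads). The reads carry no molecular identifiers, so such limits cover counting error only. The 6 genes and the 13 gene lists were chosen with earlier results of these data known. From the locus lists, 5 genes over 1 Mb from the imprinted gene or on another chromosome were left out afterwards, by position. The text names the 6 genes and, of each list, genes among the 4 with the highest mean and the gene with the smallest p in each comparison; others were chosen after their values were seen, and a few listed genes are not reported here. Alternatives were other pseudocounts, no filter, TPM, quantile and median-of-ratios scaling, voom, the label form as covariate and leaving out each line.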

Additional observations from a re-analysis of the deposited data

Results flagged for a closer look

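In groups of 4 lines, a line was singled out when its gap to the nearest other line was a larger share of the group's range than Dixon's 95% critical value. Of 136 such groups examined over the named genes 5 were singled out, and chance alone singles out about 1 in 20. None of the 5 concerns Igf2r, Airn, Slc22a2, Slc22a3, Grb10 or Gnas themselves. ICSI-F1 line 20, which also had the highest Gnas, gave 3 of them. Atp5e, a neighbour of Gnas that encodes a subunit of ATP synthase, reached 71.4 FPKM there, while its other ICSI-F1 values lay between 46.1 and 49.0 FPKM. Ctsl (cathepsin L) reached 109 FPKM, with 43.1 to 50.6 FPKM in the rest of the group. Igfbp3, an IGF binding protein, reached 79.5 FPKM, with 16.0 to 25.4 FPKM in the rest. Ctsa, the lysosomal protective protein, was low in control-F1 line 45, with 29.7 FPKM where the rest of the controls had 36.7 to 37.1 FPKM. Slc29a4, a monoamine transporter, was low in control-F1 line 29, with 1.64 FPKM where the rest had 2.33 to 2.35 FPKM.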

How the results depend on the processing

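No paired analysis was possible because the groups share no replicate numbers. Of the alternative values computed for the comparisons and relations, 162 kept their direction and their side of the threshold or stayed near the main value, 14 changed sign, 11 no longer passed a threshold, 3 newly passed one and 9 counts of genes changed further. The count of genes called between ICSI-F1 and control-F1 lines was 0 in limma with every line left out in turn (30 to 382 genes under 0.05 before adjustment) and 1 without the filter on low values (390 before adjustment). The count between label forms, 1917, was 1255 without the filter and 210 to 2691 on leaving out single lines. It was 1044 without control line 29, 287 without control line 37, 675 without control line 44, 1061 without control line 45, 210 without ICSI line 11, 429 without ICSI line 17 and 1209 without ICSI line 20. The ICSI minus control difference of Igf2r ranged from -0.13 to 0.015 with lines left out, that of Grb10 from -0.13 to 0.16, that of Airn from -0.17 to -0.0038, that of Slc22a2 from -0.19 to -0.050 and that of Slc22a3 from 0.022 to 0.055, and that of Grb10 was -0.0016 after quantile normalization. The label form difference of Igf2r lost its call without the filter (0.32), as TPM (0.27), after quantile normalization (0.21) and in 7 of 8 fits without a line (0.29 to 0.37), while without control line 29 it was 0.38 and stayed called. The label form difference of Grb10 ranged from -0.25 to 0.10 and that of Gnas from 0.45 to 0.81, called only without ICSI line 21. Among the relations, Airn with Igf2r turned to 0.47 with the label forms removed, and Airn with the fibroblast score went to 0.81 at an unadjusted permutation p under the threshold. Without the 2 lines farthest from the median, Igf2r with Slc22a3 turned to 0.30, the fibroblast score with Igf2r to -0.034 and with Slc22a3 to 0.039, and with Grb10 it fell to 0.51. The cause of these changes was not tested, beyond the fewer lines and, without the filter, the 23964 genes over which p-values were adjusted. The log2 of recovered reads scaled to depth was added after the data were seen and kept the sign for Airn, Slc22a2 and Slc22a3. Depth limits Slc22a3 most, at 1 to 11 reads a line.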
